A study of Drosophila melanogaster with 9 samples.

Results

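The genes described here are 153 protein-coding genes of the Drosophila X chromosome whose RNA was well above the level that an extra X chromosome alone would give. They were chosen by their measured levels in whole larvae. A gene was taken when its mean level over the 3 female and 3 metafemale libraries was at least 1 CPM, the counts of a gene scaled to a common library total, and its mean in metafemales was at least 2.5 times its mean in females. Of 17714 genes in the table, 2166 are protein-coding and X-linked, and 1528 of these reached the minimum level. The new glue genes, Seipin and genes whose symbols begin with Cyp, Cpr, ND- or Obp were left out by name, 30 genes in all, of which 12 had a ratio of 2.5 or more. The ratio of metafemales to females is therefore a description of the chosen genes and carries no test. The males were not used for the choice.

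In fruit flies, the MSL complex raises transcription of the X chromosome in males, which carry a single copy, so that males and females make similar amounts of most X-linked products. Metafemales carry an extra X chromosome beside normal autosomes. They develop slowly and most die before adulthood, and their X-linked genes serve to ask how expression follows gene dose.

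Each group had 3 libraries of third-instar larvae. Metafemales (XXX) have 3 X chromosomes and 2 of each autosome. They came from females with the attached X chromosome C(1)DX,ywf over winscy that were crossed to Canton S males, and they were recognised by sex and by the colour of the mouthparts. Control females have 2 X chromosomes, control males have 1 X and a Y, and both were Canton S. All were raised at 25 °C. The attached X chromosome carries the markers y, w and f and differs in origin from the Canton S chromosomes of the controls, so X dose and strain background cannot be told apart. The RNA came from whole larvae with all their tissues, so fewer cells of a type and less RNA per cell cannot be told apart either. Metafemales develop slowly, so X dose and the stage reached within the third instar cannot be told apart. Nothing in the labels says that the libraries of a group came from separate cultures, and p-values then measure only the spread between these samples, which may be technical.

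Total counts per library were 130919406 to 184268612. Metafemale replicate 1 stood apart, since transcripts assembled by the authors took 13.4% of its counts, against 24.6% to 32.6% in the other 8 libraries. Group medians are therefore also given without it. The 10 Y-linked genes listed had 0 counts in all female and metafemale libraries and summed to 141 to 517 CPM in males. Marker genes of larval tissues, summed per library, gave metafemale to female ratios of 0.175 for salivary gland, 0.361 for testis, 0.544 for ring gland, 0.587 for imaginal discs, 0.696 for germline, 0.761 for fat body, 1.0 for glia, 1.02 for neurons, 1.38 for Malpighian tubule, 1.42 for epidermis, 1.5 for blood cells, 1.62 for midgut and 2.33 for muscle. No marker of these 13 tissues was at 0 in all female and metafemale libraries. The salivary gland markers were the glue protein genes Sgs3, Sgs7 and Sgs8, so the amount of gland, its glue expression and the stage of the larvae cannot be told apart.

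The median ratio of metafemales to females over the 153 genes was 3.3 (quartiles 2.84 and 5.52). Each metafemale library over the female mean gave medians of 3.93, 3.3 and 2.96 (SD 0.494, n = 3). Over all 1528 X-linked genes the median was 1.33, below the gene dose ratio of 1.5, and over 7817 autosomal genes it was 0.915. A ratio of 2.5 or more was found in 165 X-linked genes (10.8%) and in 470 autosomal genes (6.01%). Among the chosen genes, 54 had ratios from 2.5 to below 3, 53 from 3 to below 5, 31 from 5 to below 10, and 15 of 10 or more. Every metafemale library lay above every female library for 153 of the 153 genes, beside 56.3% of the 1528 X-linked genes. The quasi-likelihood test of edgeR with Benjamini-Hochberg adjustment called 147 of them higher in metafemales, at a log2 fold change above 1 in size and an adjusted p below 0.05. The same call was made for 9.75% of the 11995 genes tested and 16.2% of the X-linked genes. Since the rule used this contrast, nothing is read from this count or from the separation of the libraries.

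**Figure D1:**
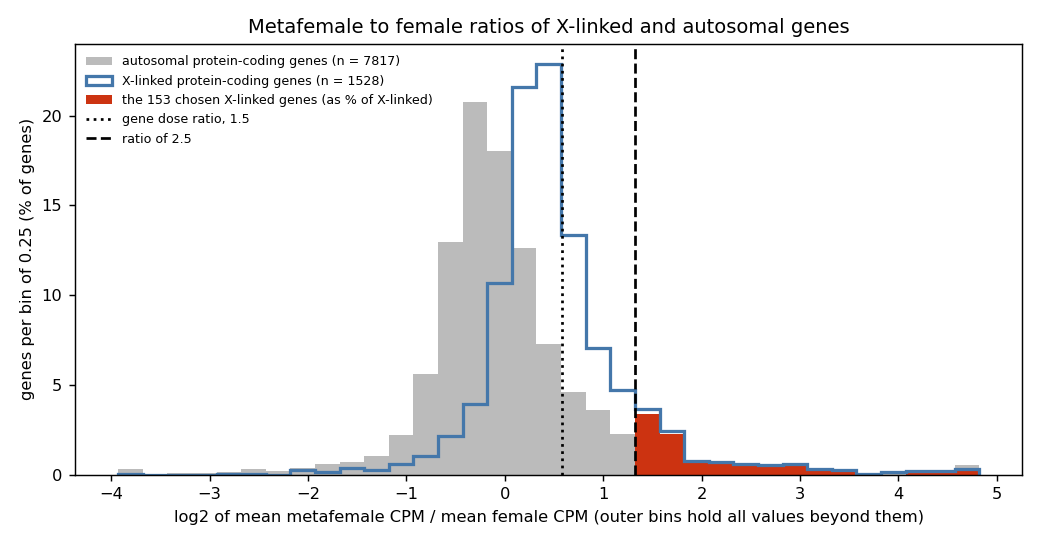
Histogram of the log2 ratio of mean metafemale CPM to mean female CPM (x axis, bins of 0.25) as the percent of genes per bin (y axis), for autosomal genes (grey), X-linked genes (blue line) and the 153 chosen genes (red). The chosen genes form the right tail of the X-linked distribution from the ratio of 2.5 (dashed line) onward, while the median X-linked gene, at 1.33, lies left of the gene dose ratio of 1.5 (dotted line).

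The chosen genes were not spread alike over the 3 metafemale libraries. The level was highest in metafemale replicate 1 for 107 of the 153 genes, beside 61.6% of all X-linked genes. In 97 genes every metafemale library reached 2.5 times the female mean, and in 151 genes every one exceeded 1.5 times. Without metafemale replicate 1 the median ratio of the 153 genes was 3.11, and the rule itself then took 122 genes. As a description added after the data had been seen, the rule was applied without each metafemale library in turn and its genes were read in the library left out. Without replicate 1, 118 of the 122 genes (96.7%) reached 2.5 in it. Without replicate 2, 124 of 157 genes (79.0%) reached 2.5 in it, and without replicate 3, 103 of 165 (62.4%). The medians in the libraries left out were 4.11, 3.21 and 2.81, while all X-linked genes outside the families left out by name had medians of 1.44, 1.22 and 1.3. The females enter every one of these ratios, so low female values raise the ratio in the library left out as well. No support for the choice is read from these values.

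The threshold fell in a dense part of the distribution. Just inside it lay stnA at 2.51, NdufV3 at 2.52, Clic at 2.52 and CG9689 at 2.54, and just outside lay CG9672 at 2.498, Mec2 at 2.48, be at 2.47 and CG33181 at 2.47. Clic, an intracellular chloride channel protein, was at 155, 133 and 130 CPM in females and at 352, 365 and 338 CPM in metafemales. CG9689 was at 5.79, 6.34 and 6.37 CPM in females and at 15.2, 14.4 and 17.4 CPM in metafemales. stnA, the stoned A protein of synaptic vesicle recycling, was at 0 in female replicate 3 and at 5.83 and 6.97 CPM in the others, against 14.1, 7.49 and 10.6 CPM in metafemales. It shares a transcript with stnB, so its counts are uncertain. A further 155 X-linked genes had a ratio of 2.5 or more below the minimum level of 1 CPM and were not taken.

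The genes are grouped below by what their products are known to do. The groups hold 60 of the 153 genes and were drawn up after the values had been seen. Of the 153 genes, 75 are named only by a CG number.

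The largest group, with 17 genes, encodes mitochondrial enzymes and parts of the respiratory chain. Their ratios ran from 2.52 to 5.48 with a median of 2.82, or 2.73 without metafemale replicate 1. Citrate synthase, encoded by kdn, makes citrate from acetyl-CoA and oxaloacetate at the entry of the tricarboxylic acid (TCA) cycle. kdn was at 61.3, 64.6 and 52.3 CPM in females, 76.9, 49.8 and 72.9 CPM in males, and 308, 257 and 181 CPM in metafemales. Idh3a, the catalytic subunit of NAD-dependent isocitrate dehydrogenase, was at 61.9, 57.1 and 53.5 CPM in females, 66.3, 54.3 and 54.1 CPM in males, and 219, 143 and 130 CPM in metafemales. Fumarase, from Fum1, was at 68.5, 60.1 and 73.6 CPM in females, 64.1, 49.9 and 53.4 CPM in males, and 212, 229 and 202 CPM in metafemales. For all of these enzymes the metafemale libraries lay apart from the other libraries, and males and females overlapped. Pdha, the alpha subunit of the E1 enzyme of pyruvate dehydrogenase, which feeds the cycle with acetyl-CoA, was at 53.1 ± 4.37 CPM in females (SD, n = 3) and at 137 ± 38.9 CPM in metafemales (SD, n = 3). Its female libraries were at 55.1, 56.1 and 48.1 CPM, its male libraries at 54.1, 42.4 and 50.3 CPM, and its metafemale libraries at 3.34, 2.49 and 1.88 times the female mean.

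The respiratory chain and ATP synthesis were represented by several subunits. sesB, the ADP/ATP carrier of the inner membrane, was at 996, 1044 and 847 CPM in females, 1187, 812 and 1076 CPM in males, and 3239, 2708 and 2192 CPM in metafemales. sesB overlaps Ant2, its neighbouring paralog, whose own ratio was 0.743. COX6B, a subunit of cytochrome c oxidase, was at 424, 431 and 335 CPM in females, 488, 319 and 497 CPM in males, and 1222, 1042 and 836 CPM in metafemales. The epsilon subunit of ATP synthase, encoded by sun (stunted), was at 174, 163 and 173 CPM in females, 311, 113 and 294 CPM in males, and 742, 802 and 610 CPM in metafemales. Male replicate 2 was the lowest male library in all 3 cases, and metafemales did not overlap either group. Further members were UQCR-14 of complex III (3.23), NdufA3 and NdufV3 of complex I (2.68 and 2.52), ATPsyndelta (2.58), the copper chaperone Cox17 (3.0), Coq8 of coenzyme Q synthesis (3.58) and the ribosomal protein mRpL14 (2.6). Gapdh2, a glyceraldehyde-3-phosphate dehydrogenase of glycolysis, stood outside this group. It was at 721, 586 and 378 CPM in females, 528, 318 and 539 CPM in males, and 2017, 1844 and 1252 CPM in metafemales.

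**Figure D2:**
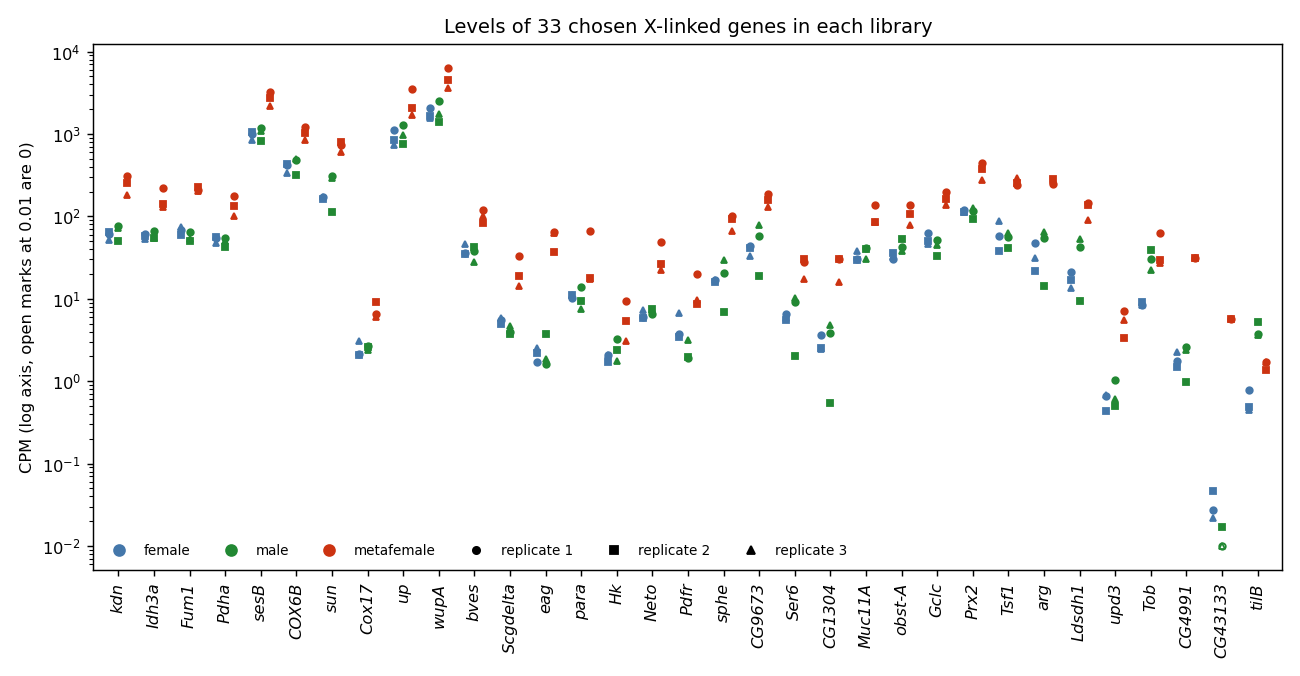
CPM (y axis, log scale) of 33 of the 153 genes (x axis) in each female (blue), male (green) and metafemale (red) library, with a mark shape per replicate and open marks for 0. All 3 metafemale marks lie above all female marks for each gene, the 2 male marks of CG43133 drawn at 0.01 stand for 0, and the metafemale marks of tilB lie below its male marks.

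Muscle was represented by 4 genes with ratios of 2.59 to 4.1. Troponin I, encoded by wupA, and troponin T, encoded by up, hold the thin filament of muscle in check until calcium rises. wupA was at 2091, 1664 and 1557 CPM in females, 2523, 1388 and 1752 CPM in males, and 6343, 4469 and 3618 CPM in metafemales. up was at 1125, 844 and 745 CPM in females, 1269, 756 and 967 CPM in males, and 3535, 2052 and 1695 CPM in metafemales. Within each group the levels of both genes varied widely, and metafemale replicate 1 was the highest library of all 9. The sarcoglycan Scgdelta, part of the dystrophin complex, was at 5.47, 4.94 and 5.78 CPM in females and at 33.3, 18.7 and 14.3 CPM in metafemales. bves, a Popeye domain protein, was at 36.1, 35.4 and 46.3 CPM in females and at 120, 83.3 and 101.7 CPM in metafemales. Without metafemale replicate 1 the median ratio of the 4 genes was 2.32. The 6 muscle markers moved with this group. Their summed level was 4648 to 8943 CPM in females, 4352 to 11326 CPM in males and 11267 to 21810 CPM in metafemales, 4 of the 6 were called higher in metafemales, and their part in these values was not tested.

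Channels, receptors and synaptic proteins of excitable cells gave 10 genes with ratios of 2.51 to 25.5 and a median of 3.07. All 10 were highest in metafemale replicate 1, and without that library the median was 2.28. eag encodes the voltage-gated potassium channel ether-a-go-go. It was at 1.72, 2.19 and 2.52 CPM in females, 1.61, 3.78 and 1.85 CPM in males, and 63.8, 37.3 and 63.0 CPM in metafemales, the largest ratio of the group. para, the voltage-gated sodium channel of action potentials, was at 10.2, 11.2 and 11.2 CPM in females, 14.0, 9.43 and 7.61 CPM in males, and 66.2, 17.7 and 17.2 CPM in metafemales. Its ratio of 3.11 thus depended on metafemale replicate 1, which alone stood far from the rest. Hk, the beta subunit of Shaker potassium channels, was at 2.1, 1.71 and 2.08 CPM in females and at 9.39, 5.39 and 3.04 CPM in metafemales. The open rectifier channel Ork1, a potassium leak channel, was at 5.3, 5.17 and 6.08 CPM in females and at 21.6, 14.96 and 18.1 CPM in metafemales. Pdfr, the receptor of the clock peptide PDF, was at 3.77, 3.43 and 6.72 CPM in females, 1.92, 1.96 and 3.2 CPM in males, and 20.2, 8.6 and 9.65 CPM in metafemales. The group also held AstA-R1, an allatostatin A receptor (5.25), Neto, an auxiliary protein of glutamate receptors (5.06), Tbh, which makes octopamine (2.91), and Proc-R, the proctolin receptor (2.61). The 5 neuron markers, of which para is one of the chosen genes, summed to 265 to 349 CPM in females and 233 to 366 CPM in metafemales.

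Secreted proteases and proteins of the gut lining and cuticle formed a further set. The 5 serine protease genes had ratios of 3.48 to 8.91 with a median of 4.2, or 3.97 without metafemale replicate 1. sphe, a serine protease homolog of the Toll pathway, was at 16.7, 16.0 and 16.8 CPM in females, 20.5, 6.84 and 29.4 CPM in males, and 99.9, 92.6 and 67.2 CPM in metafemales. CG1304 was at 3.6, 2.55 and 2.46 CPM in females, 3.8, 0.551 and 4.82 CPM in males, and 30.6, 30.2 and 15.8 CPM in metafemales. Ser6 was at 6.53, 5.59 and 5.82 CPM in females, 9.25, 2.0 and 10.1 CPM in males, and 27.9, 30.1 and 17.4 CPM in metafemales. In these genes male replicate 2 lay below all female libraries and male replicates 1 and 3 above them. CG9673 and CG4653 had ratios of 4.01 and 3.48 and the same order of the male libraries. Among structural proteins of gut and cuticle, the mucins Muc11A and Muc18B had ratios of 3.17 and 3.36, the tetraspanin Tsp2A of gut septate junctions 2.6, and the cuticle protein TwdlX 4.89. The chitin-binding protein obst-A, which organises the cuticle matrix, was at 30.3, 35.9 and 32.6 CPM in females, 43.0, 53.7 and 37.9 CPM in males, and 137, 106 and 79.0 CPM in metafemales. The 6 midgut markers summed to 2493 to 3062 CPM in females, 1851 to 2881 CPM in males and 4117 to 5126 CPM in metafemales, with 2 of the 6 called higher, and their part in these values was not tested.

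Redox, iron and small-molecule metabolism contributed 12 genes in 3 groups. Gclc is the catalytic subunit of glutamate-cysteine ligase, which makes the precursor of glutathione. It was at 62.9, 50.3 and 46.9 CPM in females, 51.1, 32.9 and 44.5 CPM in males, and 199, 164 and 139 CPM in metafemales. The peroxiredoxin Prx2 was at 120, 113 and 114 CPM in females, 116, 92.0 and 127 CPM in males, and 440, 372 and 274 CPM in metafemales. Transferrin, encoded by Tsf1, carries iron in the haemolymph, and was at 58.4, 38.3 and 89.0 CPM in females, 55.7, 41.7 and 62.3 CPM in males, and 242, 256 and 289 CPM in metafemales. It was among the genes that did not peak in metafemale replicate 1. The glutathione transferase Mgstl had a ratio of 3.42. Arginase, encoded by arg, which splits arginine into ornithine and urea, was at 47.0, 22.0 and 31.5 CPM in females, 54.6, 14.3 and 64.2 CPM in males, and 246, 288 and 266 CPM in metafemales. The highest library exceeded the lowest by a larger factor in females and in males than in metafemales. The pyrimidine enzyme su(r) had a ratio of 3.99, the biotinidase Btnd 3.99, the folate enzyme Fpgs1 2.96 and the tryptophan dioxygenase v (vermilion) 2.96. Among reductases of lipids and carbonyls, the lipid droplet enzyme Ldsdh1 was at 21.2, 17.2 and 13.7 CPM in females, 42.3, 9.34 and 53.7 CPM in males, and 145, 138 and 91.2 CPM in metafemales, and spidey and sni had ratios of 2.7 and 2.66.

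The signalling genes were few. The cytokine upd3, a ligand of the JAK/STAT receptor Domeless that is made in damaged tissue, was at 0.667, 0.44 and 0.687 CPM in females, 1.02, 0.5 and 0.611 CPM in males, and 7.19, 3.32 and 5.53 CPM in metafemales, a ratio of 8.93. The antiproliferative gene Tob was at 8.52, 9.15 and 8.38 CPM in females and at 62.7, 29.3 and 27.5 CPM in metafemales. The protein kinase Pkcdelta had a ratio of 3.38, and Corp, a negative regulator of p53, 2.77. Without metafemale replicate 1 the median ratio of the group moved from 3.98 to 3.06 for signalling genes, from 3.26 to 2.81 for gut lining and cuticle, from 3.28 to 2.99 for redox and iron, from 3.99 to 3.87 for enzymes of amino acids, nucleotides and vitamins, from 2.7 to 2.63 for lipid reductases and from 2.94 to 2.83 for male germline and cilia. Each of these medians was lower without that library.

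Several of the largest ratios belonged to genes with few counts in females, although eag had 317, 329 and 348 counts there. CG43133 had 5, 7 and 3 counts in the female libraries, 0, 3 and 0 in the males, and 792, 961 and 950 in the metafemales. This was 5.66, 5.72 and 5.63 CPM in metafemales and a ratio of 178, which rests on few female counts. CG14205 was at 0.0163, 0.0467 and 0.268 CPM in females and at 6.85, 3.69 and 3.6 CPM in metafemales, a ratio of 42.8. CG32603 was at 0.472, 0.387 and 0.289 CPM in females and at 14.0, 10.7 and 7.69 CPM in metafemales. CG14419 had a ratio of 27.1, above the 25.5 of eag, and CG11384, ssp7, CG2680, frma, CG4991, Sdic2 and CG43134 had ratios of 21.9, 20.8, 17.6, 17.5, 17.0, 12.1 and 11.9. ssp7 was also variable in males, at 6.45, 0.506 and 12.6 CPM, against 3.71, 1.37 and 1.04 CPM in females. In CPM, without regard to length, the members with the most RNA in metafemales were wupA, sesB, up, Gapdh2, COX6B and sun, followed by CG15347, Prx2, Clic, CG42249, Neb-cGP and arg. Among these, CG15347 had a ratio of 5.13, CG42249 3.09 and Neb-cGP 2.99.

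A few genes differed strongly among the metafemale libraries. Sdic2 was at 1.19 CPM in replicate 1 and at 15.9 and 16.3 CPM in replicates 2 and 3, against 0.76, 1.03 and 0.977 CPM in females. The Sdic genes are near-identical tandem copies that encode an axonemal dynein intermediate chain of sperm, and their counts are uncertain because reads can be divided between copies. kairos was at 9.64, 2.37 and 3.85 CPM in metafemales and CG43386 at 9.1, 4.71 and 2.84 CPM, and para has been given above.

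The males, which the rule did not use, served to ask whether the same genes differed in animals with less X dose. The female libraries enter both the rule and this comparison, so they are shared. The median ratio of males to females was 1.11 over the 153 genes (quartiles 0.908 and 1.43) and 0.956 over all 1528 X-linked genes. The male mean lay within 1.5 times of the female mean in either direction for 111 genes, above that for 35 and below it for 7. All male libraries lay above all female libraries for 23 of the 153 genes, beside 6.61% of X-linked genes, and below them for 12, beside 8.9%. edgeR called 6 of the 152 genes tested higher in males, beside 17.6% of all 13700 genes tested and 1.31% of the X-linked genes, and 2 lower, beside 0.328% of all genes tested. Without male replicate 2 the test called 13 higher and 2 lower.

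The male libraries split over these genes. Each male library over the female mean gave medians of 1.23, 0.804 and 1.19 (SD 0.237, n = 3) for the chosen genes, whereas all X-linked genes gave 0.971, 1.11 and 0.771. The ratio of the first to the second median was 1.27, 0.726 and 1.54 in males, 1.08, 0.959 and 0.963 in females, and 2.71, 2.7 and 2.27 in metafemales. Male replicate 2 was the lowest male library for 104 of the 153 genes, beside 19.2% of all X-linked genes. This held for 5 of the 5 serine proteases, 4 of the 4 redox and iron genes, 3 of the 3 lipid reductases, 14 of the 17 mitochondrial genes, 4 of the 5 enzymes of amino acids, nucleotides and vitamins, and 3 of the 4 muscle genes. It held for 1 of the 10 genes of excitable cells, 1 of the 4 signalling genes and none of the 3 genes of male germline and cilia. The summed muscle markers were 11326, 4352 and 7607 CPM in the male libraries and the midgut markers 2881, 1851 and 2639 CPM, both lowest in replicate 2, and their part in this split was not tested.

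**Figure D3:**
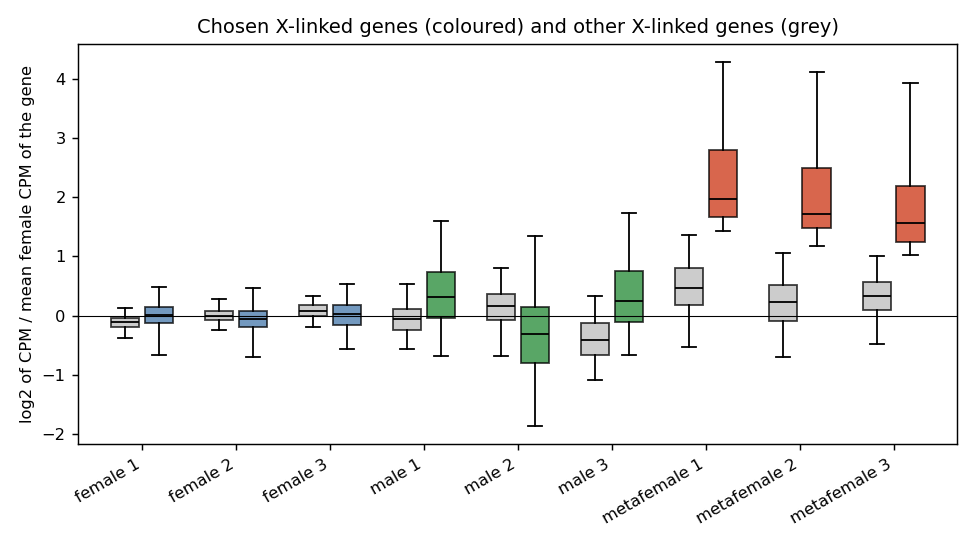
Log2 ratio of each library to the female mean of the same gene (y axis) in the 9 libraries (x axis), for the 153 chosen genes (coloured) and the other X-linked genes above the minimum level (grey), with boxes for quartiles, lines for medians and whiskers for the 5th and 95th percentiles. The chosen genes sit above the other genes in metafemales and in male replicates 1 and 3, but below them in male replicate 2.

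Of the genes called between males and females, tilB, needed for motile cilia and sperm, was at 0.781, 0.487 and 0.449 CPM in females, 3.75, 5.17 and 3.61 CPM in males, and 1.71, 1.39 and 1.69 CPM in metafemales. The log2 fold change of males over females was 2.72 (SE 0.31, edgeR adjusted p = 0.000691). It was the only one of the 153 genes called lower in metafemales than in males, with a log2 fold change of -1.22 (SE 0.17, edgeR adjusted p = 0.00148). CG3568 was at 1.06, 1.03 and 0.977 CPM in females and at 5.37, 5.35 and 4.1 CPM in males, with a log2 fold change of 2.15 (SE 0.16, edgeR adjusted p = 0.000126). CG32700 was at 5.36, 9.25 and 4.7 CPM in females and at 17.9, 48.5 and 22.6 CPM in males, with 2.05 (SE 0.4, edgeR adjusted p = 0.00995). Tob was at 30.7, 39.0 and 22.4 CPM in males, with a log2 fold change of 1.68 (SE 0.13, edgeR adjusted p = 0.000158), close to its level in metafemale replicates 2 and 3. For Sdic2 the log2 fold change was 1.26 and for CG1628 it was 1.09 (edgeR adjusted p = 0.00533 and 0.000927).

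The lower calls went to CG3457 and lcs. CG3457 was at 0.282, 0.393 and 0.181 CPM in females, 0.0601, 0.0787 and 0.0535 CPM in males, and 2.28, 1.68 and 1.61 CPM in metafemales, with a log2 fold change of males over females of -2.27 (SE 0.43, edgeR adjusted p = 0.00873). lcs was at 9.29, 19.9 and 11.8 CPM in females, 5.07, 5.3 and 3.03 CPM in males, and 38.2, 53.8 and 41.5 CPM in metafemales, with -1.74 (SE 0.29, edgeR adjusted p = 0.00491). In these genes no library of a group overlapped another group. They were picked as called lower in males, and the rule had placed metafemales above females. The order of the groups therefore follows from the choice, and nothing about X dose is read from it. CG3457 had only 8, 14 and 7 counts in the male libraries. The 6 testis markers summed to 2.36 to 3.41 CPM in females, 92.3 to 139 CPM in males and 0.601 to 1.28 CPM in metafemales, and their part in the male values was not tested.

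Between metafemales and males, edgeR called 128 of the 153 genes higher in metafemales, beside 9.21% of all 13814 genes tested and 25.4% of the X-linked genes, and 1 lower, beside 21.6% of all genes tested. The metafemale libraries were used by the rule, so this count is shared with it in part. All metafemale libraries lay above all male libraries for 139 genes, beside 49.5% of X-linked genes, and the mean ratio was 2.5 or more for 116. The male mean was above the metafemale mean in 3 genes, tilB, CG32700 and Sdic3. By group, the call was made for 16 of the 17 mitochondrial genes, 9 of the 10 genes of excitable cells, 4 of the 4 muscle genes, 4 of the 4 redox and iron genes and 0 of the 3 genes of male germline and cilia. With a library left out, these counts fell to as low as 11 for the mitochondrial genes and 7 for excitable cells. For the muscle group and for the redox and iron group the lowest was 3. Of the 5 serine proteases 2 were called, a count that rests on single libraries: it was 0 without male replicate 1, metafemale replicate 1 or metafemale replicate 2, 4 without male replicate 3 and 5 without male replicate 2. Of the 3 genes of male germline and cilia 1 was called without metafemale replicate 1. Over all 153 genes the count was 111 without metafemale replicate 1 and 106 without metafemale replicate 2, the lowest when any library was left out.

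Most of the pathways named here also have members on the autosomes, and their levels are given as counts and medians beside all genes. The lists of the TCA cycle with pyruvate dehydrogenase, the thin filament, potassium and sodium channels, and glutathione synthesis were drawn up after the values had been seen. Of 20 genes of the TCA cycle and pyruvate dehydrogenase, 10 were called higher in metafemales than in females and none lower. The 4 X-linked genes on that list, kdn, Idh3a, Fum1 and Pdha, are all among the chosen genes. The rule used this contrast, so nothing is read from their calls. The 16 autosomal genes had a median ratio of 1.96, against 0.915 over all autosomal genes, and 6 were called higher, beside 9.75% of all genes tested. SdhA, the flavoprotein of succinate dehydrogenase, was the highest of them, at 49.1, 45.6 and 45.6 CPM in females and 138, 116 and 97.3 CPM in metafemales, a ratio of 2.5. Malate dehydrogenase, from Mdh2, was at 90.1, 92.0 and 73.0 CPM in females and 261, 203 and 170 CPM in metafemales. The lowest was ScsbetaA, a subunit of succinyl-CoA synthetase, with a ratio of 0.964. The 16 autosomal genes of the list thus all stood above the median of all autosomal genes. ScsbetaA and Scsalpha1, the latter with a ratio of 1.07, were close to the female level, however. The 4 X-linked genes, at 2.57 to 4.19, had a ratio of at least 2.5 by the rule.

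The thin filament list gave a similar picture. Of its 10 genes, 5 were called higher, among them the chosen genes up and wupA. Of the 8 autosomal genes 3 were called higher, beside 9.75% of all genes tested, and their median ratio was 1.98. The troponin C gene TpnC47D was at 37.3, 28.0 and 19.7 CPM in females, 56.7, 11.2 and 55.5 CPM in males, and 157, 138 and 87.0 CPM in metafemales. Tropomyosin 1, from Tm1, had a ratio of 1.96 and was not called. The channel list differed. Of 15 genes, 4 were called higher, namely eag, Hk, Ork1 and para, all of them chosen genes. Nothing is read from the calls of chosen genes, and the lists are compared by their other genes. None of the 10 autosomal genes was called, with ratios of 0.794 to 1.52, and Sh, the X-linked Shaker channel that Hk assists, had a ratio of 1.14 and was at 80.6, 92.1 and 96.0 CPM in females and 154, 63.6 and 87.6 CPM in metafemales. In glutathione synthesis Gclc had a ratio of 3.14, while the X-linked Gss1 and Gss2 had 1.72 and 1.71. The modifier subunit Gclm, on an autosome, was at 27.3, 21.2 and 20.1 CPM in females and at 1.85, 43.1 and 40.5 CPM in metafemales, with replicate 1 far below the other libraries.

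Of the 8 genes of the JAK/STAT list, 4 were called higher in metafemales than in females, beside 9.75% of all genes tested. These were the X-linked ligands upd1, upd2 and upd3 and the autosomal feedback inhibitor Socs36E. Of these ligands only upd3 passed the minimum level and is among the chosen genes, while upd1 and upd2 had means of 1.38 and 1.37 CPM in metafemales and 0.398 and 0.164 CPM in females. Socs36E was at 41.3, 48.8 and 65.0 CPM in females and at 159, 109 and 180 CPM in metafemales. Without the chosen gene upd3, 2 of the 5 X-linked genes and 1 of the 2 autosomal genes of this list were called higher. Over all X-linked genes above the minimum level, the share called higher was 16.2%. Among 11 genes of damage and JNK signalling 4 were called higher, and among 13 of the peritrophic matrix and chitin 3 higher, obst-A included. Among 7 tested SLC36 amino acid transporters 2 were called higher, CG4991 included. Since upd3, obst-A and CG4991 are chosen genes, nothing is read from their calls. Among 9 genes that read X dose or belong to the MSL complex 2 were called higher. These were upd1, already counted above, and sisA, at means of 0.0036 CPM in females and 0.158 CPM in metafemales. Of 3 yolk protein genes 1 was called higher, Yp1, at means of 0.0274 CPM in females and 0.27 CPM in metafemales. Of 6 genes of immune recognition 1 was called lower, and of 9 glue proteins 8 lower, beside 4.83% of all genes tested that were called lower.

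**Figure D4:**
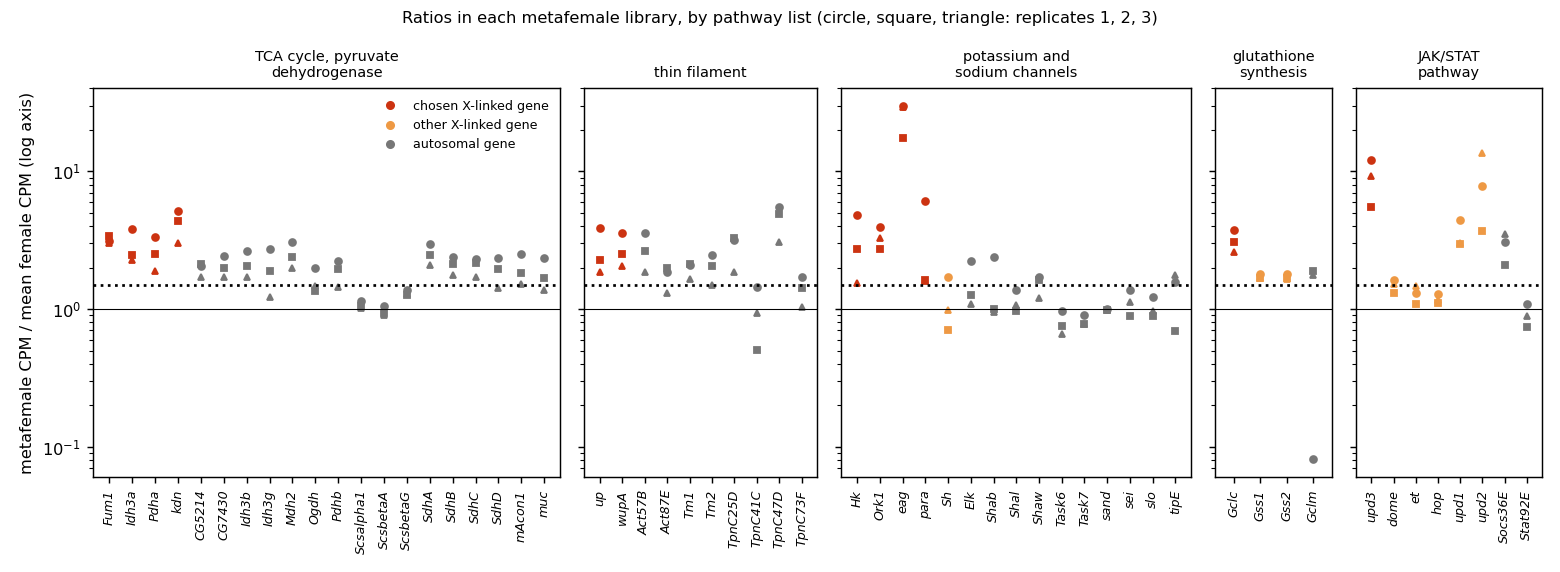
CPM of each metafemale library over the female mean (y axis, log scale) for the genes of 5 pathway lists (x axis), with chosen genes in red, other X-linked genes in orange and autosomal genes in grey, a solid line at 1 and a dotted line at the gene dose ratio of 1.5. The 4 X-linked genes of the TCA cycle list range from 2.57 to 4.19 by their means, where the rule required at least 2.5. The autosomal genes of that list range from 0.964 to 2.5, and the autosomal channels from 0.794 to 1.52.

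The table gives an estimated count for every transcript, and the rule used only their sum per gene. Of the 153 genes, 56 had 1 transcript in the table and 97 had more. In 67 of the 97 a single transcript carried at least 80% of the rise in CPM, and in 91 at least 50%. At least 1 transcript was lower in metafemales in 26 genes. The share of the leading transcript within its gene was at least 30 percentage points larger in metafemales in 13 genes. In Hk, CG44422, CG1662 and kairos, which are among them, the shares of female and metafemale libraries overlapped. The leading transcript is the one that rose most, which favours a larger share in metafemales. These counts were not made for other X-linked genes, so they are a description only. The reads of shared exons are divided between transcripts by estimation, so these values are less certain than the gene sums.

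CG4991, a putative amino acid transporter of the SLC36 family, gave an example. The gene was at 1.74, 1.51 and 2.26 CPM in females, 2.58, 0.984 and 2.41 CPM in males, and 31.0, 31.6 and 31.1 CPM in metafemales. Its transcript CG4991-RF had 0 counts in all female and male libraries and 25.2, 27.5 and 28.6 CPM in metafemales, 12969 counts in all. The transcript CG4991-RA, on which nearly all female and male counts lay, was at 1.74, 1.36 and 2.18 CPM in females and at 0.364, 0.482 and 0.699 CPM in metafemales. In the BDGP6 annotation, CG4991-RF begins at position 17091854 of the X chromosome, which is the start of the neighbouring gene CG16700, and 10522 bases upstream of the start of CG4991-RA. CG16700, which is in the same family, lies on the same strand (X, 17091854 to 17098488) inside the span of CG4991 (17091854 to 17104562). It was at 30.7, 48.3 and 40.8 CPM in females, 24.8, 56.5 and 17.6 CPM in males, and 32.6, 25.8 and 33.2 CPM in metafemales, a ratio of 0.764. As estimated, metafemales were not above females in CG16700. Because CG4991-RF and CG16700 start at the same position, reads there may be divided between both genes by estimation. The gene sums of CG4991 and CG16700 are therefore uncertain as well. The part of this division in the ratio of CG4991 was not tested.

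eag (X, 14955477 to 15009989) showed a change of transcripts of another kind. The transcript eag-RB held most of the female and male counts, with 1.49, 2.19 and 2.43 CPM in females. In metafemales eag-RG was at 7.59, 24.3 and 33.1 CPM, eag-RD at 27.4, 0.738 and 12.9 CPM and eag-RE at 15.8, 3.78 and 6.22 CPM, and eag-RD and eag-RE had 0 counts in all female and male libraries. The division among the transcripts differed from library to library in metafemales, while the sum did not fall below 37.3 CPM. In frma, the transcript frma-RF held 0% of the counts in females and 85.5% to 88.3% in metafemales. It was also present in males, at 0.526, 0.337 and 0.42 CPM, against 4.71, 3.73 and 2.9 CPM in metafemales. In bves, the share of bves-RC was 8.43% to 31.3% in females and 56.1% to 62.9% in metafemales. In males the share of bves-RC was 63.6%, 39.4% and 49.1%, above all female libraries. In kairos, the transcript kairos-RA was at 7.83 CPM in metafemale replicate 1 and at 0 in the other 8 libraries.

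**Figure D5:**
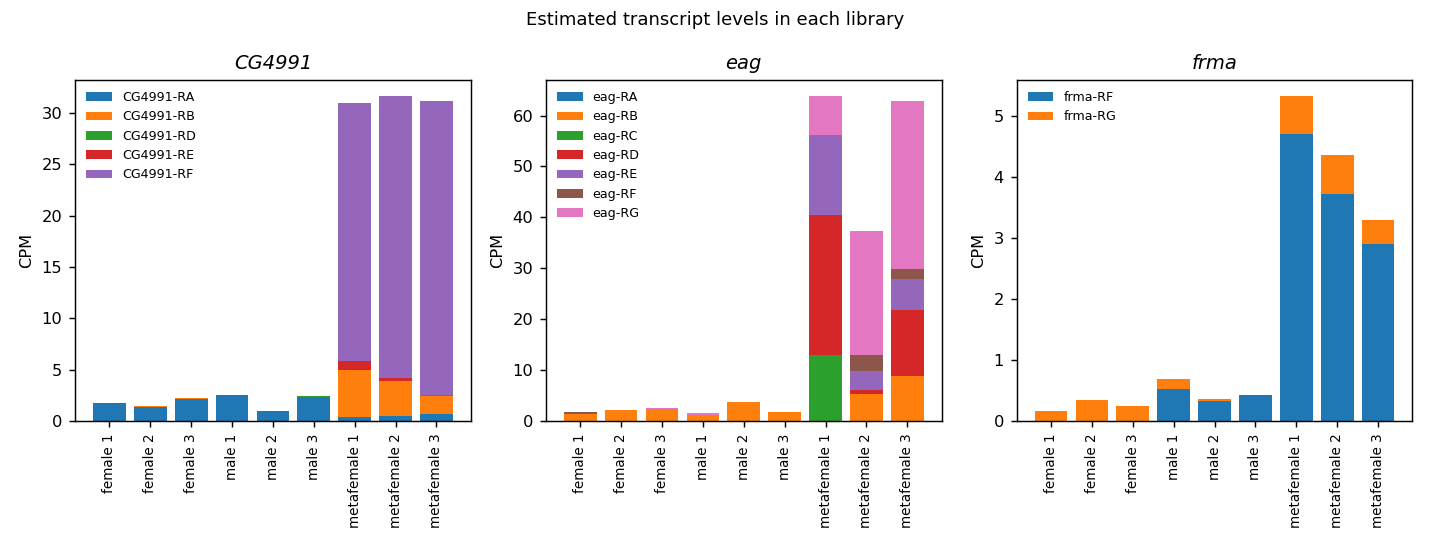
Estimated CPM (y axis) of the annotated transcripts of CG4991, eag and frma, stacked for each of the 9 libraries (x axis). CG4991-RF appears only in the metafemale bars at 25.2 to 28.6 CPM, eag is divided among several transcripts that differ between metafemale libraries, and frma-RF is at 0 in females but present in males and metafemales.

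The 153 genes were scattered along the X chromosome. With starts no more than 50 kb apart, 96 genes (62.7%) had another chosen gene nearby, beside 56.1% of all 1528 X-linked genes. Within 10 kb this was 39 genes (25.5% beside 20.7%), and within 200 kb 143 genes (93.5% beside 92.5%). There were 29 pairs and 11 runs of 3 or more genes, which held 38 genes. The 244 X-linked genes next to a chosen gene that were not chosen themselves had a median ratio of 1.29, and the other 1131 had 1.29 as well. Apart from the families left out by name, genes that reached the ratio of the rule were missing from both sets, since they were chosen. These medians therefore describe only the genes left after the choice. They cannot show whether genes beside a chosen gene were raised. Another annotated gene overlapped 70 of the 153 genes (45.8%, beside 47.3% of X-linked genes), and since the strand setting of the counting is not given in the sources used here, reads of overlapping genes cannot always be told apart.

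A run with neighbouring serine protease genes lay at 16700446 to 16732630 of the X chromosome and held sphe, CG9673, CG4653, CG34325 and TwdlX, which were 5 of the 6 X-linked genes above the minimum level that lay wholly within that span. CG9673 was at 43.9, 41.9 and 32.7 CPM in females and 185, 160 and 129 CPM in metafemales, and CG4653 at 32.3, 22.6 and 27.5 CPM in females and 101.7, 98.7 and 86.3 CPM in metafemales. Between CG4653 and CG34325 lay CG9672, the gene just outside the threshold, at 67.4, 45.2 and 59.2 CPM in females and 145, 153 and 132 CPM in metafemales. CG4678 and goe reach beyond the run and were not counted, and had ratios of 2.27 and 1.22. goe was at 90.6, 98.3 and 94.2 CPM in females and 125, 108 and 113 CPM in metafemales. Ser6 and CG1304 formed a pair of protease genes within 2815 bases elsewhere on the chromosome. A second run, of CG33178, Cox17 and Dbct, spanned 5803 bases. CG33178 was at 6.19, 4.81 and 4.51 CPM in females and 40.1, 35.0 and 30.2 CPM in metafemales, and Dbct at 4.58, 4.44 and 5.37 CPM in females and 32.1, 27.7 and 19.1 CPM in metafemales. CG15027, which lies between Cox17 and Dbct, had a ratio of 1.25.

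The longer of the remaining runs were Ldsdh1, Gclc, CG2120, CG15336 and CG10959, with ratios of 3.05 to 7.2, and D2hgdh, CG3457, SmydA-8 and CG3191, with ratios of 2.79 to 6.5. Other runs of 3 were CG2680, CG2681 and Syx4; CG32751, Btnd and CG14445; CG15247, CG1468 and CG9689; Ork1, v and CG2145; CG42249, ssp7 and CG15199; CG15754, CG32633 and up; and Sdic2, Sdic3 and obst-A. The X-linked genes that were not chosen and lay wholly within these runs numbered from 1 to 14. CG43133, with the largest ratio, paired with wupA, and no other gene above the minimum level lay between them.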

How the data were processed

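RNA of whole larvae was depleted of ribosomal RNA and sequenced as paired reads in 9 libraries. Per the labels, the submitters' processing notes name CASAVA, Trimmomatic, HISAT2, StringTie and the build BDGP6. The authors deposited a single table of estimated counts per transcript from StringTie, as whole numbers without normalization, for 42937 transcripts. The 34750 of 34919 FlyBase transcripts found in Ensembl release 115 were summed per gene. A total of 8017 assembled transcripts, 169 unpaired ones and 1 entry naming a gene counted toward library totals only. CPM was scaled by the total of all entries.

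Genes were tested with edgeR 4.0.16 in R 4.3.3 for each pair of groups, by quasi-likelihood after TMM scaling and filterByExpr. P-values were adjusted by Benjamini-Hochberg across every gene tested, and a call needed a log2 fold change above 1 in size and an adjusted p below 0.05. The SE given is the absolute log2 fold change over the square root of F. DESeq2 1.42.0, other scalings, filters, the replicate number as a block and each library left out were alternatives. The test was checked on simulated data. The chosen genes, gene lists and markers were selected with earlier results of these data known. Genes were named by a rule: the 12 with the highest mean metafemale CPM, the 12 with the highest ratio, the 4 nearest either side of the threshold, members of the lists, runs of 3 or more, those called between males and females, and the 4 most variable in metafemales. Genes of the functional groups and the lists drawn up later were chosen after their values were seen. Each chosen gene had at least 147 counts in each metafemale library, while 33 had a female mean below 1 CPM and 3 had 0 counts in a female library.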

Additional observations from a re-analysis of the deposited data

How the results depend on the processing

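The median ratio of metafemales to females of the 153 genes was 3.04 to 3.58 under all alternatives run, and their median ratio of males to females 1.02 to 1.23. The rule took 103 to 165 genes under other scalings, a minimum of 5 CPM, group medians and with each library left out, but 254 genes with no CPM minimum and at least 10 counts over the 6 libraries. Within 10 kb 39 genes had a chosen neighbour, and within 50 kb 96, because the shorter distance holds fewer genes. Leaving out each library in turn gave 142 to 144 genes called between metafemales and females, 8 to 15 between males and females, and 107 to 130 between metafemales and males. The count of 15 came without male replicate 2, and the cause was not tested. DESeq2 called 148, 9 and 139 genes in these comparisons.

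With the replicate number as a block, 145, 8 and 105 genes were called, against 147, 8 and 129 without it. The correlations of same-numbered libraries ran from -0.273 to 0.29 and were not above 0.1 in every pair of any comparison, so the numbers were not taken to pair the samples. Of the 8 genes called between males and females, 7 kept the call under every alternative run, and CG3457 lost it with the block. Of the 129 called between metafemales and males, 99 kept the call under every alternative run. No called gene changed direction. Scaling by annotated transcripts only moved the median log2 ratio of all genes by -0.127 between metafemales and females, and TMM and size factors moved that of males to females by -0.105 and -0.126. Single transcripts, genes under 1 CPM in females and near-identical copies are the values least certain at this depth.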
